A study of Drosophila melanogaster with 2 samples.

Results

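The cytoplasmic ribosomal protein genes of Drosophila melanogaster are described here as targets of the zinc-finger insulator protein ZIPIC, which binds DNA. The members are the protein-coding genes whose symbol begins with RpL or RpS in the Ensembl annotation of the dm6 genome. There are 92 of them among 13986 protein-coding genes, 54 named for the large subunit of the ribosome and 38 for the small one. The pattern also takes a few relatives whose names end in -like. It does not take sta and Rack1, which encode ribosome components under other names. Binding was measured by ChIP-seq (chromatin immunoprecipitation followed by sequencing) in whole embryos of a stable transgenic line in which CG7928, the gene of ZIPIC, is expressed with the green fluorescent protein (GFP) joined to the C-terminal end. Males and females aged 0 to 24 h were pooled, and an anti-GFP antibody was used. Both samples belong to this 1 group and are biological replicates 2 and 3, so no condition is compared with another. Embryos of all cell types and stages in that span are mixed, so a peak does not say in which cells the protein was bound. No precipitation from embryos without the fusion was used here.

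Ribosomal proteins assemble with ribosomal RNA into the large and small subunits that translate messenger RNA. Their genes are scattered over the genome, are among the most strongly transcribed in growing cells, and must be expressed in balanced amounts. In flies the loss of 1 copy of many of them gives the Minute phenotype, with slow development and thin bristles. Many of their promoters use a pyrimidine-rich start called the TCT initiator in place of the common initiator. Insulator proteins such as ZIPIC and BEAF-32 bind DNA, and their partner CP190 joins them, at boundaries between chromatin domains and at the promoters of broadly expressed genes.

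A gene is called bound when the summit of an optimal peak lay within 500 bp of one of its annotated starts. The optimal list (2971 peaks) comes from the authors' procedure for comparing replicates. It equals the 2971 strongest entries of the list made from the pooled replicates, and it holds peaks that replicate 2 does not list. That pooled list and each replicate's own list hold 30000 entries, strong peaks and weak candidates together. Signal is the authors' score for an entry and has no stated unit. It describes and ranks entries within a list, and values from different lists are given side by side without a common scale. The lists hold no read counts, so depth is unknown.

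The sequences at 4 strong summits show the string described for ZIPIC. Each runs 5′ to 3′ on the strand of the ribosomal protein gene, spans 50 bp on each side of the summit, and comes from the RefSeq copy of the dm6 assembly. Capitals mark CAGGGCTG or the shorter AGGGNTG, on either strand, so that CAGCCCTG is the first string read on the other strand. All 4 windows lie outside annotated exons, at chrX:17148300-17148400 (minus strand), chrX:765171-765271 (minus), chrX:7901751-7901851 (minus) and chr2L:18443298-18443398 (minus).
RpS5a: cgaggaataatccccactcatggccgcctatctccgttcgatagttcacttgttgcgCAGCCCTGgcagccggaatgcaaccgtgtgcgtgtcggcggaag
RpL22: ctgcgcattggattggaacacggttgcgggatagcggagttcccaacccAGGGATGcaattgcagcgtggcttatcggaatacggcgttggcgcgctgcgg
RpS6: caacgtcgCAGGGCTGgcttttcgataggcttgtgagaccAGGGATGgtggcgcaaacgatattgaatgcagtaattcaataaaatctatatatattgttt
RpS26: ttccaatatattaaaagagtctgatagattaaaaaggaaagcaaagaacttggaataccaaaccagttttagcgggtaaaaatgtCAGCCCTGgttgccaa

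Other summits lack both strings. Those of RpL3 (chr3R:11221651-11221751, plus strand) and RpL34a (chr3R:26059385-26059485, minus strand) are shown because they are the strongest members of this kind. Capitals mark the 8 bases closest to CAGGGCTG, from which RpL3 differs by G4T and RpL34a by G8A, counted from the first base of the string.
RpL3: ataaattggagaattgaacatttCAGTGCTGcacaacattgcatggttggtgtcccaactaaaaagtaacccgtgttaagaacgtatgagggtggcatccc
RpL34a: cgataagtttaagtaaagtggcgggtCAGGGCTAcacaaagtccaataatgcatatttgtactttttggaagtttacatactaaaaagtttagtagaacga

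A further kind of summit holds TATCGATA, the DNA replication-related element bound by the factor DREF. RpS25 (chr3R:11216330-11216430, minus strand) and RpL28 (chr3L:3222964-3223064, minus strand) are given as examples, with the element in capitals.
RpS25: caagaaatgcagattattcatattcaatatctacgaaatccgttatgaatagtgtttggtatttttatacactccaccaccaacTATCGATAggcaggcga
RpL28: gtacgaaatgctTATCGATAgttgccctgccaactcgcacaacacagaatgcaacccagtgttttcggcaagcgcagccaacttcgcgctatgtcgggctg

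The first question was how many of the genes carried a peak. A peak lay at 61 of 92 ribosomal protein genes (66.3%), against 18.0% of the 13894 other protein-coding genes. Large-subunit genes were bound at 38 of 54 (70.4%) and small-subunit genes at 23 of 38 (60.5%). In the stronger part of the optimal list, above its median signal of 209, the members' share was 47.8% against 10.6% of other genes, and the subunits had near-equal shares of 48.1% (large) and 47.4% (small). No peak was the strongest of 2 members, though a member's peak could also lie near a gene outside the set.

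The members' share was above that of other genes in each replicate. Among the 2971 strongest entries of replicate 2 there was one at 39 members (42.4%), against 13.4% of other genes. Among those of replicate 3 there was one at 57 members (62.0%), against 19.8%. In replicate 2 alone the small subunit had the larger share (47.4%, and 38.9% for the large subunit), while in replicate 3 the large subunit did (68.5%, and 52.6% for the small). The order of the subunits thus turned between the replicates. Of the bound members, 22 of 38 large-subunit and 18 of 23 small-subunit genes had their summit in any entry of replicate 2. The others lay in stretches without entries in that list, described at the end. The turn therefore cannot be read as a difference between the subunits, and its cause was not tested. Any entry, however weak, was present at 82 members in the pooled list (89.1%, against 50.4% of other genes). The same was so at 49 members in replicate 2 (53.3%, against 31.5%) and at 84 in replicate 3 (91.3%, against 56.1%). Only 36 members (39.1%) had an optimal peak whose summit lay in 1 of the 2971 strongest entries of replicate 2 and also of replicate 3, against 10.7% of other genes.

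**Figure D1:**
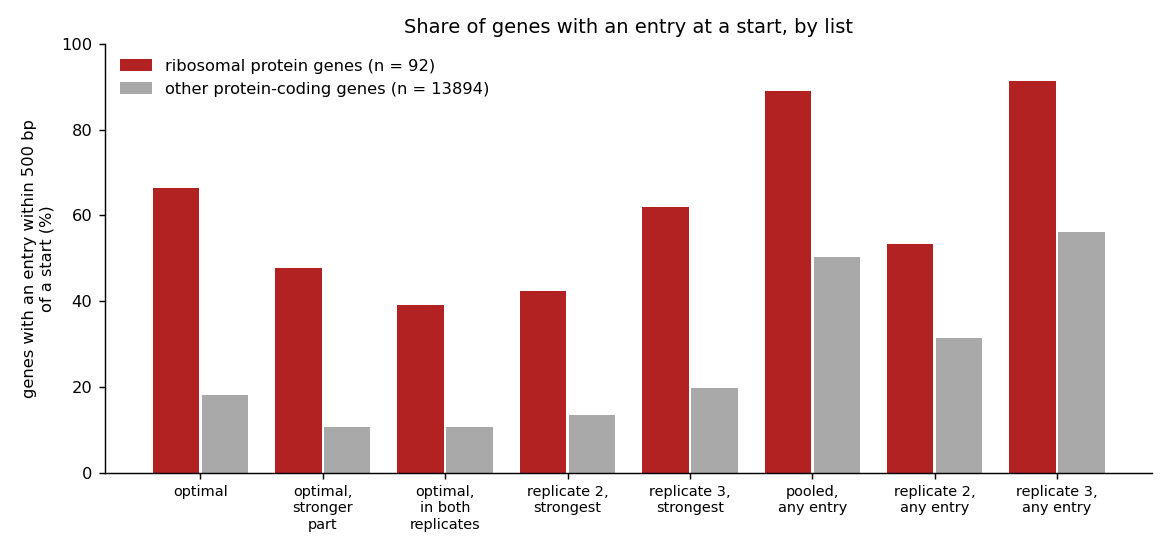
Share of genes, in percent, with an entry within 500 bp of a start in each list. Red bars are the 92 ribosomal protein genes and grey bars the 13894 other protein-coding genes. The red bar is the taller in all 8 lists, by 66.3% to 18.0% in the optimal list.

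The strongest peak at a member was that of RpL3, which encodes a large-subunit protein near the peptidyl transferase centre (FBgn0020910, peak 3R: 11221405 to 11221942). Its signal was 1299 in replicate 2, 916 in replicate 3 and 2205 in the pooled list, where it ranked 105. The summit lay 193 bp upstream of RpL3 but 62 bp from the start of CG6693, which faces away from it. RpL34a had 1050 in replicate 2, 937 in replicate 3 and 1989 pooled. Its summit, too, lay nearer to a neighbour, 61 bp from the start of Trmt61, a tRNA methyltransferase gene.

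Among small-subunit genes RpS23, whose product lies at the decoding centre, had 799 in replicate 2, 822 in replicate 3 and 1608 pooled. Its summit was far upstream, at 480 bp, with no start of another protein-coding gene within 500 bp of it. In replicate 3 the entry that held the RpS23 summit had its own summit more than 500 bp from the gene's start. RpS5a on the X had 612, 514 and 1120, with the summit 86 bp upstream of 1 of its 2 starts. In all, 6 members had a pooled signal above 1000, and none of these ranked below 350 in either replicate.

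A second tier ran from 591 to 926. It held RpL22 (442 in replicate 2, 457 in replicate 3, 926 pooled) and RpS30 (338, 401 and 739), which is made as a fusion with a ubiquitin-like protein. RpS6, a target of S6 kinase, had 332, 287 and 624, and its summit lay 470 bp upstream, within 79 bp of the start of bys, a small-subunit assembly factor. RpS27 had 380, 230 and 620, and RpL17 had 304, 290 and 591. RpL7 had 279 in replicate 3 and 605 in the pooled list but no entry in replicate 2. It was the only one of the 12 strongest members that was missing from a replicate.

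**Figure D2:**
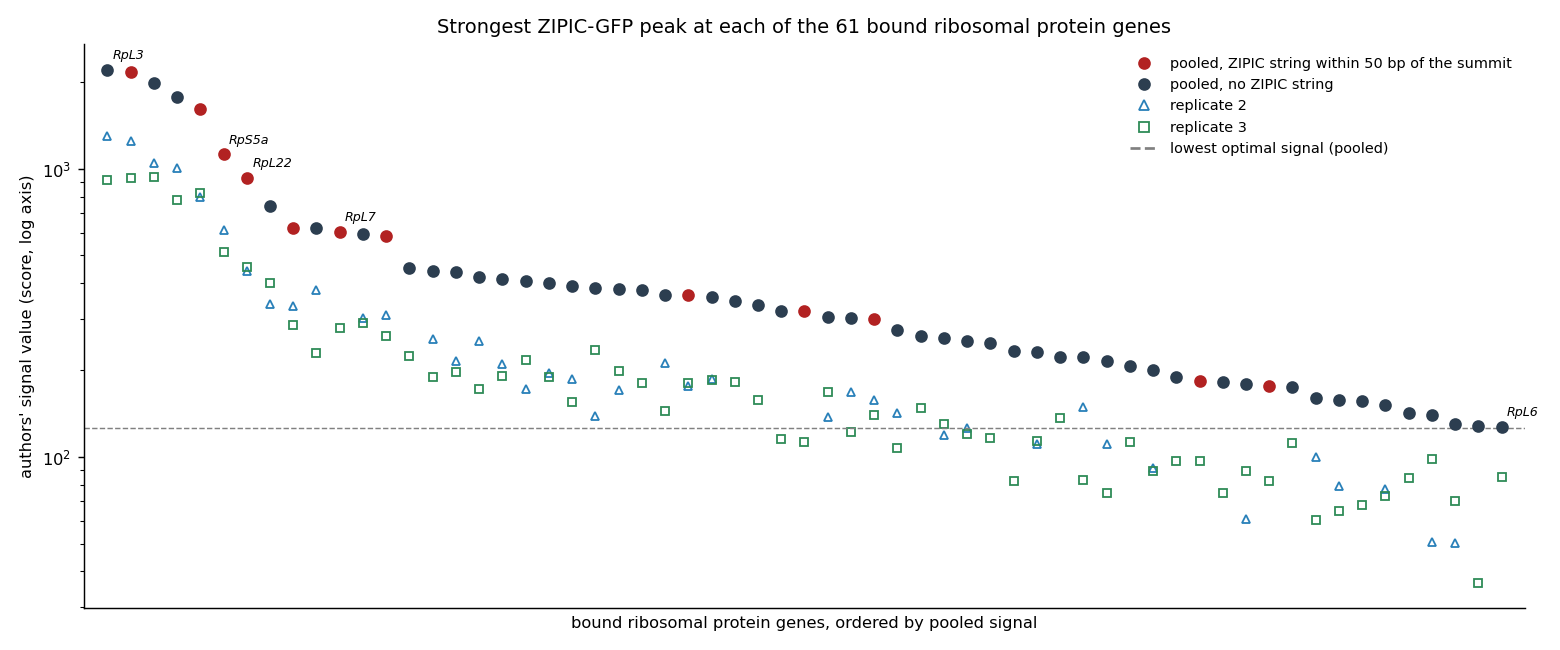
Authors' signal value (score, log axis) of the strongest peak at each of the 61 bound ribosomal protein genes, ordered by pooled signal along the horizontal axis, with 5 genes named. Filled circles are pooled values, red where a ZIPIC string lies within 50 bp of the summit, open triangles are replicate 2 and open squares replicate 3. The values run from 127 at RpL6 to 2205 at RpL3, the quartiles are 200 and 439, and 21 genes have no triangle.

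Typical members had peaks of middle strength. The median pooled signal was 320 over the 61 bound members, with quartiles of 200 and 439. Over the 2500 other bound genes it was 246, with wider quartiles of 166 and 718. In ranks, 25 of 61 members (41.0%) lay between 595 and 1188 in the optimal list and 13 (21.3%) above them, at ranks 1 to 594. The peaks at other protein-coding genes had 20.4% and 28.2% in these ranges. Only 5 bound members (8.20%) were among the 297 strongest peaks, against 16.6% of other bound genes. Thus members had the higher median and the smaller share at the very top. Bound large- and small-subunit genes had close medians of 313 and 320.

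The summit lay close to the start. Over bound members the median distance between summit and nearest own start was 53 bp, against 121 bp for other bound genes. The summit was within 100 bp in 48 of 61 members (78.7%, against 43.2% of other bound genes) and upstream of the start in 52 (85.2%, against 89.4%). The 2500 other bound genes shared 1735 distinct peaks, so a shared peak was also counted for its farther genes. In addition, 47.8% of all members and 26.3% of other genes had 2 or more annotated starts. For a given summit a further start can only bring the nearest one closer, but it also widens the span searched for the strongest peak. How far these 2 points account for the differences was not tested. The closest were RpL31, 1 bp downstream, and RpL36 and RpS27, each 1 bp upstream. Among the farthest were RpS23 and RpS6, named above, and the only summit over 100 bp downstream was that of RpL26, at 107 bp and inside an intron. Most summits were intergenic (47 of 61), 12 were in a 5' UTR and 2 in an intron. These places were not counted for other bound genes, so they are not a trait particular to the members. The median peak was 410 bp wide.

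**Figure D3:**
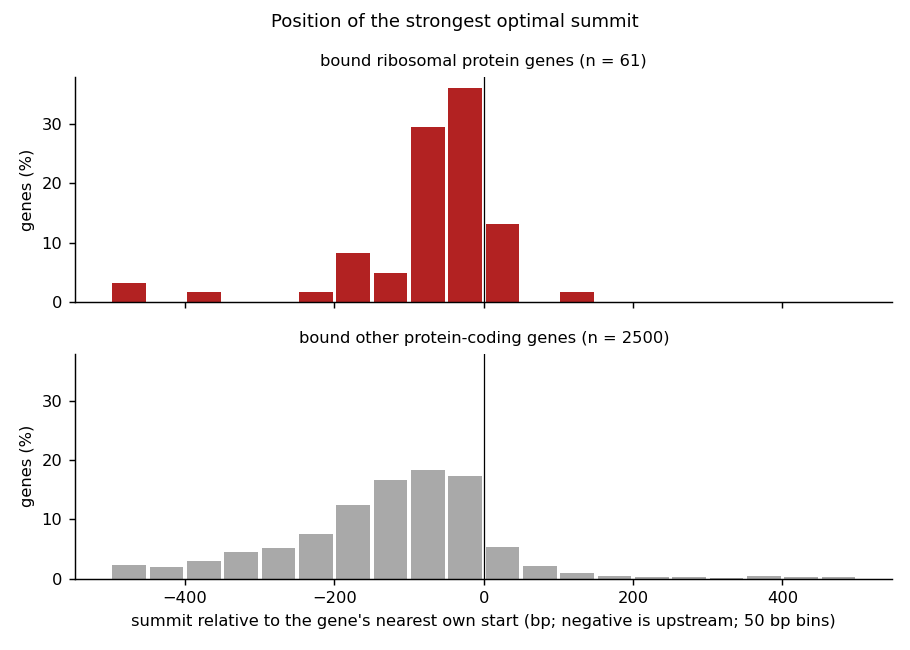
Share of bound genes, in percent, by position of the strongest optimal summit relative to the nearest own start (bp, 50 bp bins, negative is upstream), for 61 ribosomal protein genes (top) and 2500 other protein-coding genes (bottom). The bin from 50 bp upstream to the start holds 36.1% of the ribosomal protein genes and 17.4% of the others, and the lower distribution has the longer upstream tail.

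Neighbouring genes often shared the promoter region. Of the bound members, 40 of 61 (65.6%) lay in a head-to-head cluster of protein-coding starts, close to the 67.1% of other bound genes. Among all members, bound or not, 59.8% lay in such a pair, against 36.9% of other genes. The share bound was 72.7% for paired and 56.8% for unpaired members, and 32.8% and 9.37% for paired and unpaired other genes. The paired and unpaired members thus lay closer together than the paired and unpaired other genes; the difference was not tested. The member's own start was the nearest protein-coding start to the summit in 53 of 61 (86.9%), against 70.2% of other bound genes. The 8 exceptions among members were RpL3, RpL34a, RpS6, RpL13, RpL41, RpS20, RpS14a and RpLP0-like. Among themselves the 61 bound members had 61 distinct peaks, while the 2500 other bound genes shared 1735. Peaks that members share with genes outside the set do not enter this count. Another protein-coding start lay within 500 bp of the summit at 31 of 61 members (50.8%), against 61.2% of other bound genes. Genes that share a peak cannot all be nearest to its summit, apart from ties. Sharing within the set thus limits the 70.2%, and the contrast cannot be read as a trait of the members.

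Several partners have known roles. RpL13 faces Dref, the gene of the factor that binds TATCGATA, with starts 84 bp apart and a summit 31 bp from the Dref start (signal 382). RpS27 faces Nup37, a nuclear pore gene, at 144 bp, and RpL14 faces Nelf-E, a subunit of the elongation-pausing factor NELF, at 127 bp (signal 420). RpL28 faces the initiation factor gene eIF1 at 381 bp (signal 365), and RpLP0-like faces 14-3-3zeta at 87 bp (signal 222). In such pairs 1 peak cannot be assigned to either gene.

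The strings at the summits were then counted within 50 bp on each side. AGGGNTG, which includes every CAGGGCTG, occurred at 12 of 61 bound members (19.7%), against 24.1% of other bound genes and 2.75% of the 27029 weaker pooled entries. CAGGGCTG itself was at 5 members (8.20%), against 11.0% and 0.296%. These 5 were RpS23, RpS5a, RpS6, RpS26 and RpS27A, all of the small subunit, and the observation that they are was made after the values were seen. The median signal was 595 for the 12 members with AGGGNTG and 275 for the 49 without it. The ranges of the groups overlapped widely. RpL26 and RpL37-1 held the string with signals of only 176 and 184.

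TATCGATA occurred at 13 of 61 summits (21.3%), against 5.48% of other bound genes and 0.810% of weaker entries. Its 5-base core CGATA, bound by BEAF-32 and contained in every TATCGATA, occurred at 31 (50.8%), against 29.9% and 13.2%. Among the stronger members with TATCGATA were RpS25 (signal 450) and RpL19 (391). The median signal was 301 for members with it and 320 for members without. It came together with AGGGNTG at 4 members. GGTCACACT, the element bound by M1BP, was at 4 summits (6.56%), against 1.80%, namely those of RpLP0, RpL37A, RpL27A and RpS15. None of the 5 strings was present at 25 bound members, including RpL3, RpS27 and RpL17.

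The strings were also counted by promoter. In the window from 250 bp before to 50 bp after the outermost start, AGGGNTG was present in 17 members (18.5%), of which 12 (70.6%) were bound, while 65.3% of members without it were bound. Among other genes with and without it 46.0% and 14.6% were bound. CAGGGCTG itself was in 3 members, all bound, while 65.2% of the rest were bound. It was in 320 other genes, of which 79.4% were bound, against 16.5% of those without it. TATCGATA was in 28 members (30.4%, against 9.21% of other genes), with 71.4% of these bound and 64.1% of the rest. Among other genes with and without it 28.8% and 16.9% were bound. CGATA was in 67 members (72.8%, against 47.1% of other genes), with 46 of these bound and 15 of the other 25. Among other genes 1437 of 6544 with CGATA and 1063 of 7350 without it were bound. GGTCACACT was in 9 members (9.78%) and in 834 of 13894 other genes. Of the members with it 88.9% were bound and of the rest 63.9%, while among other genes the shares were 28.9% and 17.3%. In percentage points, the shares with and without CAGGGCTG, AGGGNTG and TATCGATA thus lay closer together in members than in other genes. For CAGGGCTG this rests on only 3 members with the string. For CGATA the difference was only slightly larger in members, and it rests on 25 members without the string. For GGTCACACT it was larger in members, but it rests on 9 members with the string. Members as a set were bound more often than other genes, so ratios of the shares need not give the same order. None of these differences was tested.

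The TCT initiator was taken as CTTTCT or the like string CTTTCC, and further as CTTTTC and also as CTTTTT, on the sense strand, with its first base within 5 bp of an annotated start. It was present in 56 of 92 members (60.9%) and in 2.11% of other genes. A match at any annotated start was counted, and 47.8% of members and 26.3% of other genes had 2 or more starts. Of the members with it 71.4% were bound, and 58.3% of those without. Among other genes the shares bound were 25.3% with it and 17.8% without. The RpS30 start shown next is not the one nearest to its summit. Windows of 30 bases around an annotated start of RpS30 (chr3R:20850582-20850611, plus strand) and of RpS6 (chrX:7901317-7901346, minus strand) show the string in capitals.
RpS30: ttctgcgccatctttCTTTTTcgggatccg
RpS6: tacttcctcctatcggtCTTTTTcaaccct

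Many ribosomal protein genes carry small nucleolar RNA (snoRNA) genes in their introns, which guide the modification of ribosomal RNA. Of the members, 28 (30.4%) host at least 1 snoRNA, against 0.403% of other protein-coding genes. A peak lay at 21 of these 28 (75.0%) and at 40 of the other 64 (62.5%). RpS5a, with 14 snoRNA genes, holds the most among the 12 strongest members. Among other protein-coding genes 27 of 56 hosts were bound (48.2%) and 17.9% of non-hosts.

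Paralogous members differed from each other. Flies carry 2 or more copies of some ribosomal protein genes, and 27 members formed 15 pairs by symbol, with RpS28 counted as 3 pairs. In 12 pairs 1 copy was bound, in 2 both were, and in 1 neither was. RpS28b was the bound copy in more than 1 of these 12 pairs. Of the 27 genes in pairs 15 were bound, while 66.3% of all members were. Pairs of other genes were not counted, so the 12 pairs have no background and are a description. RpS5a had a signal of 1120, against 57.5 for a candidate at RpS5b, a copy used mainly in the ovary. RpL22 had 926, and RpL22-like, a copy known from the testis, had no entry in any list. RpS10b had 301 and RpS10a no entry. RpS19a had 157 and RpS19b, another germline copy, 40.0. RpS15Aa had 160 and RpS15Ab 42.4. RpL37-1 had 184, RpL10Ab 200 and RpS28b 253, and their relatives RpL37-2, RpL10Aa, RpS28a and RpS28-like had no pooled entry. In replicate 3, however, RpS28a had an entry of 80.1 at rank 2498, among the 2971 strongest of that list. RpL10Aa had a weak entry of 26.7 in replicate 2.

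The exceptions were RpL34a and RpL34b, both bound with signals of 1989 and 439, and RpLP0 with RpLP0-like, at 320 and 222. RpLP0 encodes the base of the ribosomal stalk, and the relatives of RpLP0-like and RpL24-like in yeast act in ribosome assembly. Neither RpL24-like (57.6, against 346 at RpL24) nor RpL7-like (no pooled entry, against 605 at RpL7) was bound. In replicate 3 RpL7-like had an entry of 61.9. RpS14a and RpS14b lie in tandem on the X and are near-identical. RpS14a had 262 and RpS14b 105, and the summit of the RpS14a peak lay nearer to Dhdds. How reads that fit both copies were placed is not given in the sources used here, so the values of such pairs are uncertain. Outside the pairs 46 of 65 members were bound (70.8%).

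**Figure D4:**
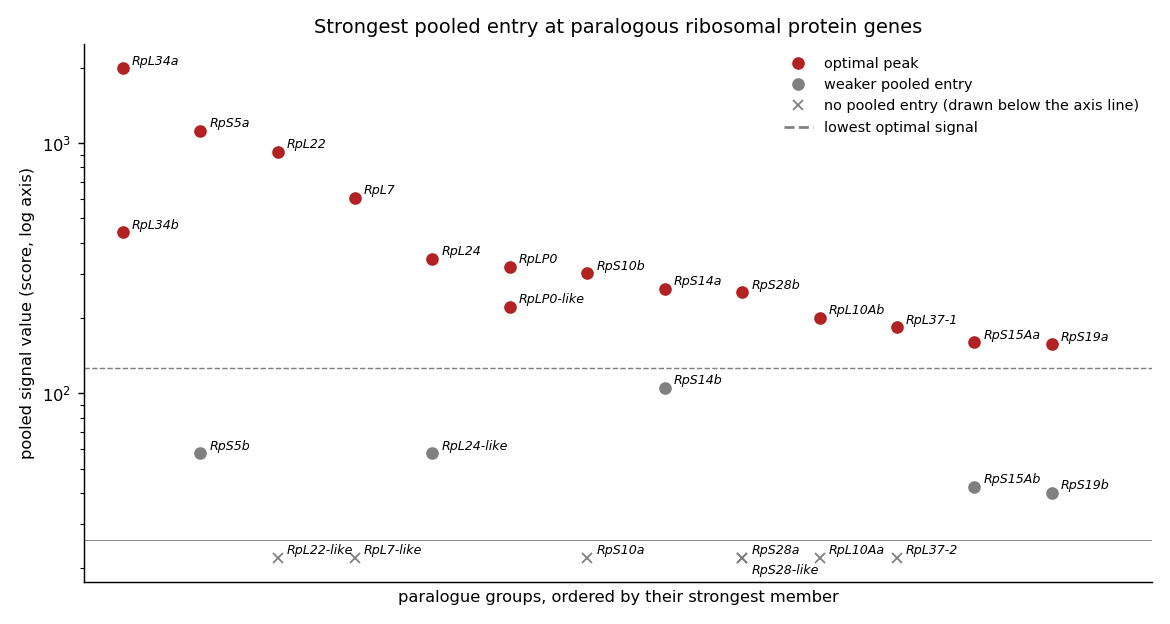
Pooled signal value (score, log axis) of the strongest entry at the members of each paralogue group, groups ordered from left to right by their strongest member. Red circles are optimal peaks, grey circles weaker entries, crosses below the line genes with no pooled entry, and the dashed line is the lowest optimal signal, 126. Each group has at least 1 gene above the dashed line, and RpL34 and RpLP0 have both.

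Of the 31 members without a peak, 21 had a weaker pooled entry, with signals from 35.8 to 122 and a median of 93.2, and 14 of those entries lay within 100 bp of the start. Among those just outside the threshold of 126 were RpL35 (122), RpS24 (122), RpS2 (107) and RpL36A (106). Just inside were RpS15 (130), RpS3A (128) and RpL6 (127), so the members pass from bound to unbound without a gap. RpS2 had 44.7 in replicate 2 and 67.8 in replicate 3. No pooled entry was found at 10 members, among them RpL21, RpS9 and RpL40, the last of which is made as a fusion with ubiquitin. These 3 had weak entries in replicate 3 only, at 31.7, 41.2 and 33.9. No list held an entry at RpL22-like, RpL37-2, RpS10a and RpS28-like.

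The share bound on the arms with more than 1 member ranged from 57.9% of 19 members on 2L to 78.6% of 14 on X, while the other genes of these arms had 17.7% and 17.5%. The single member on chromosome 4, RpS3A, was bound with a signal of 128. Low pooled values, named after they were seen, were those of RpL5 (49.7, 2L: 22536560 to 22536969), RpL15 (46.6, 3L: 27267048 to 27267457) and RpL38 (57.7). Lower still were RpL7A on X (35.8), RpS19b on 3R (40.0) and RpS15Ab on 2R (42.4).

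The replicates were then compared gene by gene. All 61 bound members had their summit in an entry of replicate 3 (against 99.4% of other bound genes), and 40 (65.6%) in one of replicate 2 (against 72.4%). In 36 the entries were among the 2971 strongest of both replicates (59.0%, against 59.2%). Spearman's rho of the replicate 2 and replicate 3 signals was 0.91 across the 40 genes listed in both, which are not independent replicates and were read from the same libraries. The largest differences in rank were at RpS15Aa (1424 in replicate 2 and 4020 in replicate 3), RpL29 (3672 and 1756), RpS19a (1872 and 3558) and RpS12 (1265 and 2772).

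For the 21 genes without a replicate 2 entry the nearest summit in that list was 2016 to 34342 bp away. Their pooled signals ran from 127 to 605 with a median of 222, and those of the other 40 from 130 to 2205 with a median of 383. The cause of the missing entries was not tested. RpL7 (605), RpS25 (450), RpL23A (380) and RpL24 (346) were the strongest of them.

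**Figure D5:**
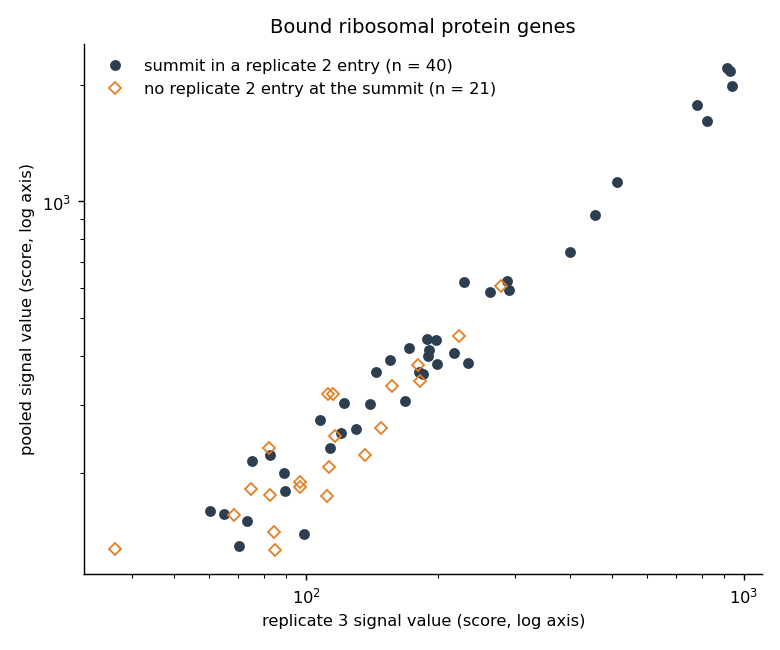
Pooled signal value against replicate 3 signal value (scores, both axes log) for the 61 bound ribosomal protein genes. Filled circles are the 40 genes whose summit lies in a replicate 2 entry and open diamonds the 21 without one, and the diamonds lie along the same band as the circles, up to RpL7 at 279 and 605.

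Ribosome components outside the symbol pattern and genes of ribosome assembly were read in the same way. Both listed components were bound: Rack1, a scaffold protein on the small subunit (signal 225, 7 bp upstream), and sta, which encodes the small-subunit protein SA (142, 42 bp upstream, no entry in replicate 2). Of 30 ribosome assembly genes 11 were bound (36.7%, against the 18.0% given above). The strongest were hoip (1139), a snoRNP component, eIF6 (1018), a large-subunit assembly factor, and bys (624), whose peak is the one near RpS6. Others were Ns2 (425), pit (279) and Surf6 (269). Fib, the rRNA methyltransferase fibrillarin, had 213 with a summit nearer to CG3085. Nop56 (95.0) and nop5 (114), partners of Fib in the same particle, had only weaker entries.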

How the data were processed

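ZIPIC-GFP ChIP-seq of 2 biological replicates was analysed from the deposited dm6 peak lists: 1 candidate list per replicate, 1 from the pooled replicates and 1 optimal list from an irreproducible discovery rate (IDR) procedure, per the deposited descriptions. These state that both replicates were called against a control alignment. The sources used here do not give the caller, the aligner or their versions. The deposited signal value is a score without a stated scale. The deposited −log10 q-value was not used for ranking, and summits are deposited offsets in bases. Lists on the older dm3 build were not used.

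Starts came from Ensembl release 115 (BDGP 6.54) and sequence from RefSeq; no entry ran past the end of an arm. The members, gene lists, strings and alternatives were chosen with earlier results of these data known. No test was made: counts stand beside those of other protein-coding genes, whose shares are backgrounds. In a head-to-head cluster, protein-coding starts at most 1000 bp apart are chained, and a minus-strand start precedes a plus-strand start of another gene. A replicate was taken to share a peak when 1 of its 2971 strongest entries held the summit, and to list it when any entry did. Genes named in the text were the 12 strongest members, those nearest the threshold, paralogues, and the extremes in distance and rank, with others chosen after their values were seen; a few genes that this rule names are not reported here. Sizes of sonicated fragments were 200 to 800, per the labels. Strings were searched on both strands within 50 bp on each side of a summit. Positions are counted from 1. Python 3.11.15 and numpy 2.4.6 were used, and the functions were tested on simulated data.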

Additional observations from a re-analysis of the deposited data

How the results depend on the processing

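The count of 61 bound members was 36 with peaks found in both replicates, 39 to 57 in the strongest entries of a single replicate (39 without replicate 3, 57 without replicate 2), and between 44 and 82 under the other alternatives. Large-subunit genes had 21 of 38 left with peaks found in both replicates and 21 to 37 in a single replicate. Small-subunit genes had 15 of 23 left with peaks found in both. Other counts under single replicates were 32 to 48 for own start nearest (53), 26 to 38 for head-to-head clusters (40), and 7 to 10 for AGGGNTG (12). The head-to-head count was also 28 with starts joined at 500 bp. The count of AGGGNTG was also 4 in windows 50 bp across, in place of 100 bp, and 5 with CAGGGCTG alone. The median summit distance of 53 bp was 60.5 bp in the stronger part of the list and 55 to 64 bp in single replicates. The median signal of 320 was 383 in the stronger part and 148 to 186 in single replicates, whose scores are not on the pooled scale. The cause of these differences was not tested. No paired analysis was possible because there is 1 group. Depth is unknown, so the absence of a peak sets no limit on binding.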

Other observations

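Near matches to the ZIPIC string were counted after the values had been seen. Within 50 bp of the summit, 16 of 61 bound members (26.2%) held CAGGGCTG with at most 1 mismatch, against 27.0% of other bound genes. All 6 members with a pooled signal above 1000 did so, and 10 of the 55 others. Of the other bound genes above 1000, 385 of 518 (74.3%) did. Among the 6 members, RpS23 and RpS5a held it exactly, RpL3 differed by G4T and RpL34a by G8A, counted from the first base of CAGGGCTG. Since the limit of 1000 and the mismatch were chosen on these values, the counts are a description.

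The 21 bound members without a replicate 2 entry lay in stretches of that list with no entries at all. The stretches were 15886 to 134780 bp long, with a median of 36737 bp, and were chosen for holding no entry at a gene, which favours long ones. Over the whole replicate 2 list the median spacing between entries was 2281 bp, and the 99th percentile 34566 bp. Replicate 3 had a median of 1396 bp and a 99th percentile of 43434 bp, so long stretches occur in both lists. Replicate 3 had 3 to 94 entries in the same stretches and the pooled list 1 to 47, of which 1 to 7 were optimal peaks. The longest was around RpL7, with 94 replicate 3 entries and 5 optimal peaks, and the one around RpL36 held an optimal peak with a signal of 1774. Other genes in these stretches lack a replicate 2 entry as well, so counts of members in replicate 2, also by subunit, depend on them. The cause was not tested.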
